A study of Homo sapiens with 4 samples.

Results

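The metallothionein genes MT1A, MT1E, MT1F, MT1G, MT1H, MT1X and MT2A, the zinc-sensing transcription factor MTF1 and the metal exporters SLC30A1 and SLC30A10 were examined in A549 cells, a human lung adenocarcinoma line, after treatment with embelin. They were the 10 genes picked by name, or through the RefSeq transcript listed for a probe, out of 30970 gene or transcript names on the array. Their 18 probes are each 60 bases long. The treated cells received 15 µM embelin, a plant benzoquinone known as an inhibitor of the apoptosis inhibitor XIAP, and RNA was taken at 4 h. The control cells were untreated and taken at the same time. Both groups had been moved to medium with 2% serum 12 h before treatment. The study made the comparison to find pathways altered early in embelin-induced cell death. Each group held 2 samples, each on a 1-colour Agilent array, all 4 on 1 slide. Nothing in the labels says that the 2 samples of a group came from separate cultures, so the p-values below measure only the spread between these samples, which may be technical.

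Metallothioneins are small cysteine-rich proteins that bind zinc and copper and buffer them inside the cell. MTF1 binds zinc and then activates the metallothionein genes and SLC30A1 through short promoter sequences called metal response elements. SLC30A1 carries zinc out across the plasma membrane, and SLC30A10 carries manganese out of the cell. Metallothionein genes are known to respond also to oxidants and to glucocorticoids.

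In the RefSeq annotation the 7 metallothionein genes lie in 1 run of 15 neighbouring genes on chromosome 16, from MT2A to MT1X. Of these 15 genes, 14 carry a metallothionein name and 5 are pseudogenes. MTF1, SLC30A1 and SLC30A10 lie on chromosome 1. Probes of several MT1 genes were so alike in sequence that they were not independent. The RefSeq transcripts listed for MT1X probe a included those of MT1A and MT1H, those for MT1H probe a included MT1L and MT1X, and MT1M was listed for both MT1H probe b and the MT1A probe. The probe pairs printed here are 2 of those with the fewest mismatches between different genes. They are given 5′ to 3′, and capitals mark the bases at which a probe differs from its partner where they overlap. MT1X probe a and MT1H probe a shared 55 of 58 overlapping bases:
MT1X probe a: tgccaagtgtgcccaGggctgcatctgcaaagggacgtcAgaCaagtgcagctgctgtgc
MT1H probe a: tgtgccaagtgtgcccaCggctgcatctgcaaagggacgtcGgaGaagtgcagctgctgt
MT1H probe b and the MT1A probe shared 50 of 54 overlapping bases:
MT1H probe b: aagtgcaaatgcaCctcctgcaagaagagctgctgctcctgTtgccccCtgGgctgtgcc
MT1A probe: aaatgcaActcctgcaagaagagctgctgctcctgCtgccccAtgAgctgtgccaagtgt
A value from any of these 4 probes may therefore include transcripts of another MT1 gene. Probes of 1 gene overlapped too. MT1X probes a and b had 48 bases in common without a mismatch, and MT2A probes b and c had 55 overlapping bases with 1 mismatch. The sequence of MT1E probe a overlapped that of a probe for MT1L, a metallothionein pseudogene of the same run, over 42 bases with 4 mismatches.

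Promoter sequence was taken from RefSeq (GRCh38.p14) for 6 of the 10 genes, MT2A, MT1H, MT1X, SLC30A1, MTF1 and SLC30A10. The metal response element core was searched as TGCGCNC and TGCACNC on both strands, where N is any base. The 250 bases before the gene start are printed for the 3 metallothioneins and for SLC30A1, since they show how the cores are spread. They are given 5′ to 3′ on the strand of the gene, with the cores, on either strand, in capitals; no 2 cores touched or overlapped.
MT2A, chr16:56608334-56608583, plus strand: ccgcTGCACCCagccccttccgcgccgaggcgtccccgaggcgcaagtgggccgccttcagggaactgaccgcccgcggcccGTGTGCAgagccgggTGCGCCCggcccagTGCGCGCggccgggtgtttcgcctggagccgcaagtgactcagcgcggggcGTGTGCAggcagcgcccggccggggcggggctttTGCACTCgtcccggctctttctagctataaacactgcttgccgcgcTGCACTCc
MT1H, chr16:56669564-56669813, plus strand: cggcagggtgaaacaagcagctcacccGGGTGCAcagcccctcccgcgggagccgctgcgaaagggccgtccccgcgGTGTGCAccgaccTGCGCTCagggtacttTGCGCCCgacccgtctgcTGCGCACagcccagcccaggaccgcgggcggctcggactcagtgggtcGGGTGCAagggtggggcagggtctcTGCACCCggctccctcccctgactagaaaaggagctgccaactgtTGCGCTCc
MT1X, chr16:56682220-56682469, plus strand: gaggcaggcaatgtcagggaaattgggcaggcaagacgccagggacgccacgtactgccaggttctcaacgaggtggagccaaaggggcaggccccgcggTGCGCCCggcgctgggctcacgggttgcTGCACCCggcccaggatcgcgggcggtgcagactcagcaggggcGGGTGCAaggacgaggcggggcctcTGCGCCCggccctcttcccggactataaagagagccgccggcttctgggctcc
SLC30A1, chr1:211579162-211579411, minus strand: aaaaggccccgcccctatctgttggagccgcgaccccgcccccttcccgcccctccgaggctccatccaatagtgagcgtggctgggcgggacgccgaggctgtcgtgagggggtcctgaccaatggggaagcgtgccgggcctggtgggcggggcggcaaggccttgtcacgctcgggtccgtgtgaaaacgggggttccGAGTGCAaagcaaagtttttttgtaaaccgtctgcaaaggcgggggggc
MT1H had 8 cores, MT2A had 7, MT1X had 4 and SLC30A1 had 1. Of the 35116 promoter windows of the same length in the table, 24.8% held at least 1 core, 0.370% held at least 4 and 0.0313% held at least 7. Both MT1H and MT1X had cores at bases -53 to -47 and -78 to -72 relative to the start. The window of MTF1 and both windows of SLC30A10 held none of these letters. The core of the antioxidant response element, searched as TGACNNNGC on both strands, occurred once each before the start of MT2A, MT1X and SLC30A1 and in 1 of the 2 windows of SLC30A10, against 10.9% of all windows. A match is a description of the letters and not a binding site.

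**Figure D1:**
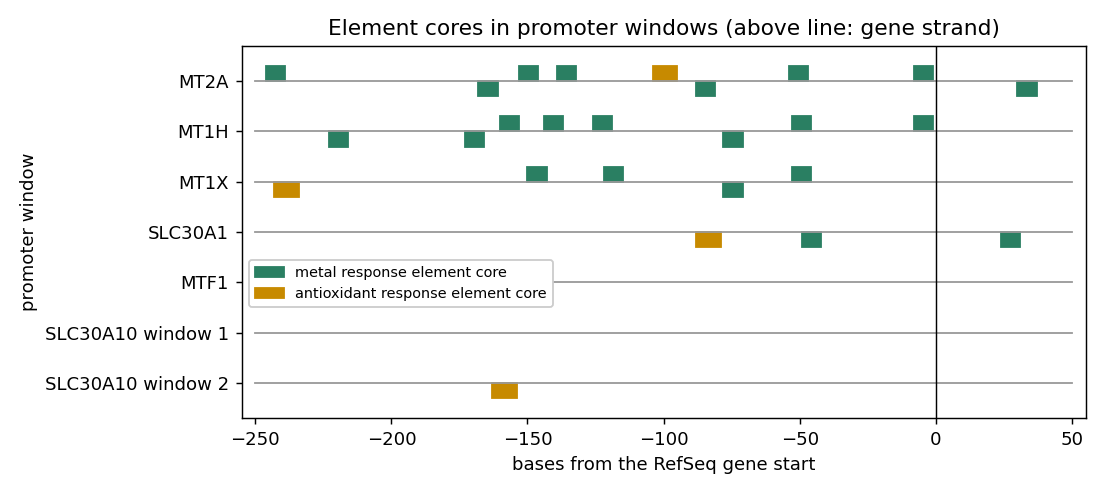
Positions of metal response element cores (green) and antioxidant response element cores (amber) in 7 promoter windows of 6 genes, in bases from the RefSeq gene start, with cores on the gene's own strand above the line and on the other strand below it. Of the 22 metal response element cores in the whole windows, 8 lie in MT1H, 8 in MT2A, 4 in MT1X and 2 in SLC30A1.

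The arrays held 50238 different probes, of which 50.3% to 66.7% per array were well above background by the scanner software's own flag. The share was 66.7% and 66.4% on control replicate 1 and embelin replicate 2, and 50.3% and 51.2% on control replicate 2 and embelin replicate 1. No spot was saturated. All 6 epithelial markers, EPCAM, CDH1, KRT7, KRT8, KRT18 and KRT19, were well above background on all 4 arrays. Of 3 endothelial and 4 fibroblast markers, COL1A1 alone was above it on all 4, while CDH5 and DCN were above it on none. Among haematopoietic markers, CD14 was above it on all 4 arrays. In bulk RNA of this kind, fewer cells of a type and less RNA per cell cannot be told apart.

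All values below are log2 signals after each array was shifted to the same 75th percentile. A probe was tested if both controls, both embelin arrays or all 4 arrays showed it well above background. That held for 15 of the 18 probes and 9 of the 10 genes, SLC30A10 being the gene without such a probe. Each gene was represented by its brightest such probe. Differences between embelin and control were tested with limma over 17649 genes, with Benjamini-Hochberg adjustment over all of them.

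None of the 9 genes passed. The limma count was 0 of 9 at an adjusted p under 0.05, where 1.81% of all genes passed, and 0 of 9 at an unadjusted p under 0.05, where 19.5% of all genes passed. The counts of the other lists below stand against the same shares. None of the 9 differed by 2-fold or more between the group means, against 12.6% of all genes. None of the 9 had groups that did not overlap, against 51.8% of the 17298 genes measured on all 4 arrays. The median log2 difference of the 9 genes was 0.51, beside -0.06 over all genes tested. For the 7 metallothioneins the median was also 0.51, with 6 of the 7 means above 0, and the limma adjusted p ranged from 0.431 to 0.910.

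MT2A, which codes for a metallothionein made in most tissues, had 3 probes. Probe a, the brightest, read 16.75 and 16.42 in the controls and 17.22 and 16.73 with embelin. Embelin replicate 1 stood above the other 3 arrays, and embelin replicate 2 lay just below control replicate 1, so the groups overlapped. The means were 16.59 ± 0.23 in the controls and 16.97 ± 0.35 with embelin (SD, n = 2 each). The difference was 0.39 with a standard error of 0.26, a 1.31-fold ratio with a 95% interval of 0.801 to 2.13, and limma gave an adjusted p of 0.483. Probe b read 16.58 and 16.29 in the controls and 16.84 and 16.56 with embelin, again with overlapping groups. Probe c read 15.75 and 15.34 in the controls and 16.01 and 15.79 with embelin. It was the 1 probe of the 15 tested whose groups did not overlap, by a gap between control replicate 1 and embelin replicate 2 that was small beside the spread within either group. With each probe fitted on its own, the log2 differences of probes b and c were 0.26 and 0.36, with limma adjusted p of 0.606 and 0.50.

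MT1X, MT1H, MT1A, MT1G and MT1E, which code for closely related MT1 isoforms, had the same order of arrays. MT1X probe a read 15.29 and 14.52 in the controls and 15.72 and 15.24 with embelin. The controls were 0.77 apart, more than the difference of 0.58 between the group means (SE 0.35). This was a ratio of 1.49-fold with a 95% interval of 0.766 to 2.91 and a limma adjusted p of 0.446. MT1X probe b, which shares most of its bases with probe a, read 14.77 and 14.00 in the controls and 15.24 and 14.54 with embelin, a log2 difference of 0.50. On both probes embelin replicate 1 was highest, control replicate 2 lowest, and the other 2 arrays lay between them.

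MT1H probe a read 15.11 and 14.42 in the controls and 15.59 and 15.06 with embelin. The difference was 0.57 (SE 0.34), 1.48-fold with a 95% interval of 0.778 to 2.81, with a limma adjusted p of 0.439. Probe b of MT1H read 14.93 and 14.08 in the controls and 15.36 and 14.87 with embelin, a log2 difference of 0.61. The groups overlapped on both probes, since embelin replicate 2 fell below control replicate 1. The MT1A probe, 1 of those shared with MT1H, read 15.01 and 14.40 in the controls and 15.49 and 14.94 with embelin. Its difference was 0.51 (SE 0.33), 1.43-fold with a 95% interval of 0.770 to 2.64, with a limma adjusted p of 0.462.

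MT1G probe a read 15.24 and 14.73 in the controls and 15.91 and 15.21 with embelin. The 2 embelin arrays were 0.70 apart, more than the 0.57 between the group means (SE 0.34). The ratio was 1.49-fold with a 95% interval of 0.786 to 2.82, and the limma adjusted p was 0.431, the lowest of the 9 genes. Probe b of MT1G read 12.05 and 11.07 in the controls and 12.53 and 11.85 with embelin. Its log2 difference of 0.63 was the largest of the 15 probes, and its controls were also the farthest apart, by 0.97. MT1E probe a read 13.48 and 12.74 in the controls and 13.87 and 13.38 with embelin. Its difference was 0.51 (SE 0.34), 1.43-fold with a 95% interval of 0.744 to 2.74, with a limma adjusted p of 0.483. The other MT1E probe read 2.97 and 3.58 in the controls and 5.32 and 3.99 with embelin, was well above background on embelin replicate 2 alone and was not tested.

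MT1F, another MT1 isoform of the same run, differed from these in the order of its arrays. Its probe read 10.53 and 10.49 in the controls and 10.78 and 10.07 with embelin, so that the 2 embelin arrays lay on either side of both controls. The log2 difference of the means was -0.09 (SE 0.29), a ratio of 0.941 with a 95% interval of 0.542 to 1.64, and limma gave an adjusted p of 0.910. Whether MT1F differed in its response from the other metallothioneins was not tested.

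**Figure D2:**
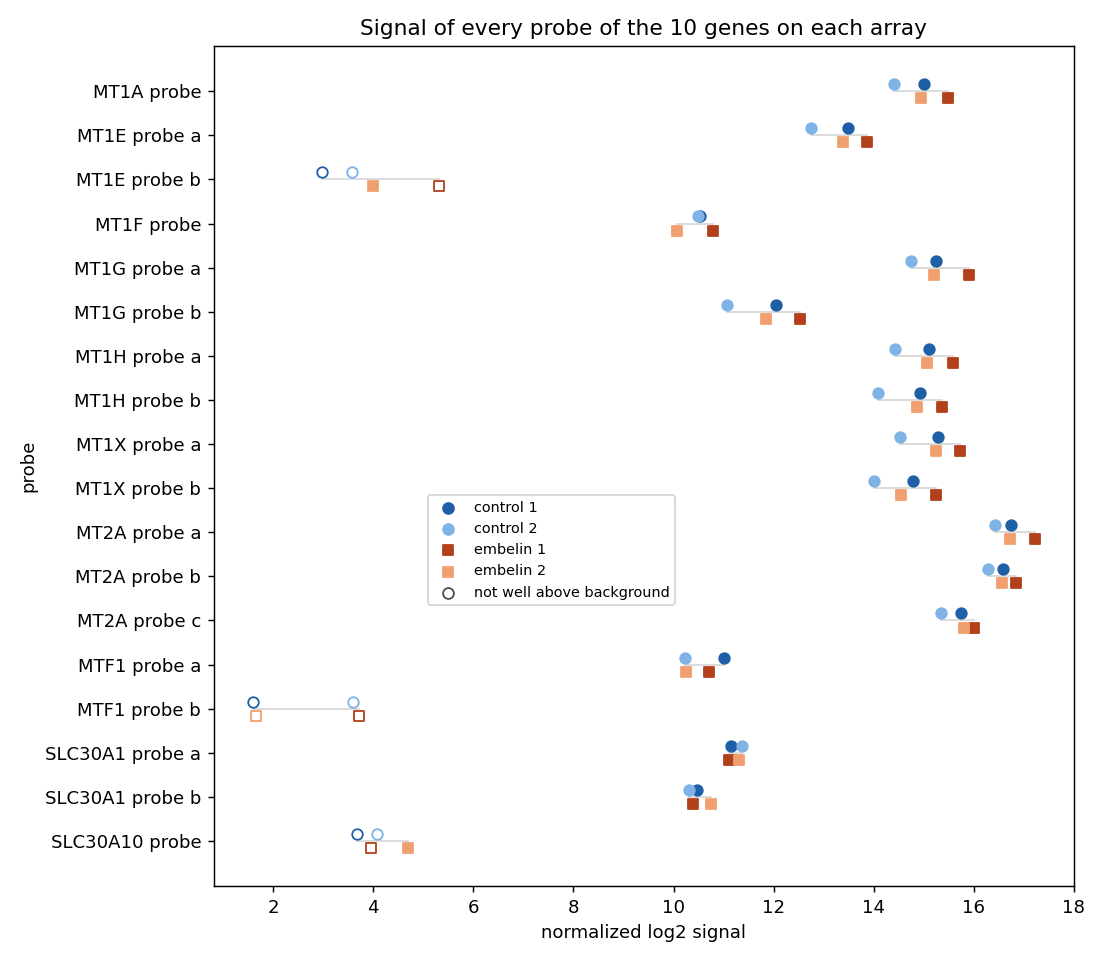
Normalized log2 signal of all 18 probes of the 10 genes on each array, with control arrays as circles above each line, embelin arrays as squares below it and open symbols where the probe was not well above background. For 11 of the 12 metallothionein probes tested, embelin replicate 1 is farthest right and control replicate 2 farthest left, with the other arrays between them.

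MTF1 probe a read 11.003 and 10.22 in the controls and 10.71 and 10.24 with embelin. Both embelin values lay between the controls. The log2 difference was -0.14 (SE 0.35), a ratio of 0.910 with a 95% interval of 0.466 to 1.78, and limma gave an adjusted p of 0.880. The second MTF1 probe, at 1.60 and 3.59 in the controls and 3.71 and 1.66 with embelin, was well above background on no array.

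SLC30A1 probe a read 11.15 and 11.36 in the controls and 11.11 and 11.30 with embelin. The values of the 2 groups interleaved, and the log2 difference was -0.05 (SE 0.19). The ratio of 0.965 had a 95% interval of 0.679 to 1.37, the narrowest of the 9 genes, with a limma adjusted p of 0.917. This interval leaves out a 2-fold difference in either direction. Probe b of SLC30A1 read 10.46 and 10.31 in the controls and 10.39 and 10.75 with embelin, a log2 difference of 0.19 that was opposite in sign to that of probe a, with a limma adjusted p of 0.723. The SLC30A10 probe read 3.68 and 4.07 in the controls and 3.95 and 4.68 with embelin. It was well above background on embelin replicate 2 alone, so this manganese exporter was not compared between the groups.

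The 95% intervals of 6 of the 7 metallothionein genes ran from below no difference to above 2-fold. With 2 arrays in each group, a difference of the size measured could not be told from none. An exact two-sided permutation test of 2 against 2 cannot give a p below 0.333.

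**Figure D3:**
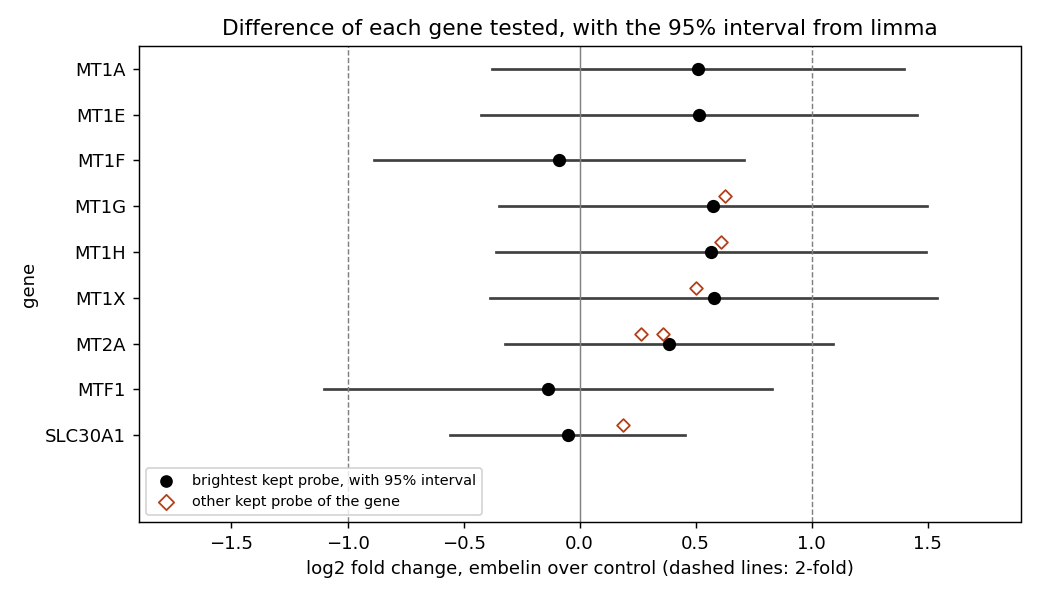
Log2 fold change of embelin over control for the 9 genes tested, with the 95% interval from limma (n = 2 arrays a group), and the other tested probes of the same gene as diamonds. All 9 intervals cross 0, and 6 metallothioneins lie between 0.39 and 0.58 while MT1F, MTF1 and SLC30A1 lie at -0.09, -0.14 and -0.05.

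The metallothionein probes varied together between the arrays of a group. All 12 tested were brighter on replicate 1 than on replicate 2 among the controls, by 0.04 to 0.97 with a median of 0.65 on the log2 scale. All 12 were also brighter on replicate 1 than on replicate 2 among the embelin arrays, by 0.22 to 0.71 with a median of 0.51. The median difference between the group means of the same 12 probes was 0.51, close to the median gap of the embelin arrays and below that of the controls. MTF1 had gaps of the same sign and size, 0.78 and 0.47, while SLC30A1 probe a had gaps of -0.21 and -0.19. The gaps of SLC30A1 probe b differed in sign, at 0.15 between the controls and -0.36 between the embelin arrays. Among the 17298 genes measured on all 4 arrays, 24.0% were brighter on replicate 1 in both groups. The SD of the 2 controls was 0.23 to 0.55 for MT2A, MT1G, MT1A, MT1H, MT1E and MT1X and 0.03 for MT1F, beside a median within-group SD of 0.21 over all genes. The brighter arrays were at slide positions 4 and 2 and the dimmer at 1 and 3, and each pair held 1 array with the higher and 1 with the lower share of probes above background. The part of culture, labelling or hybridisation in this was not tested.

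**Figure D4:**
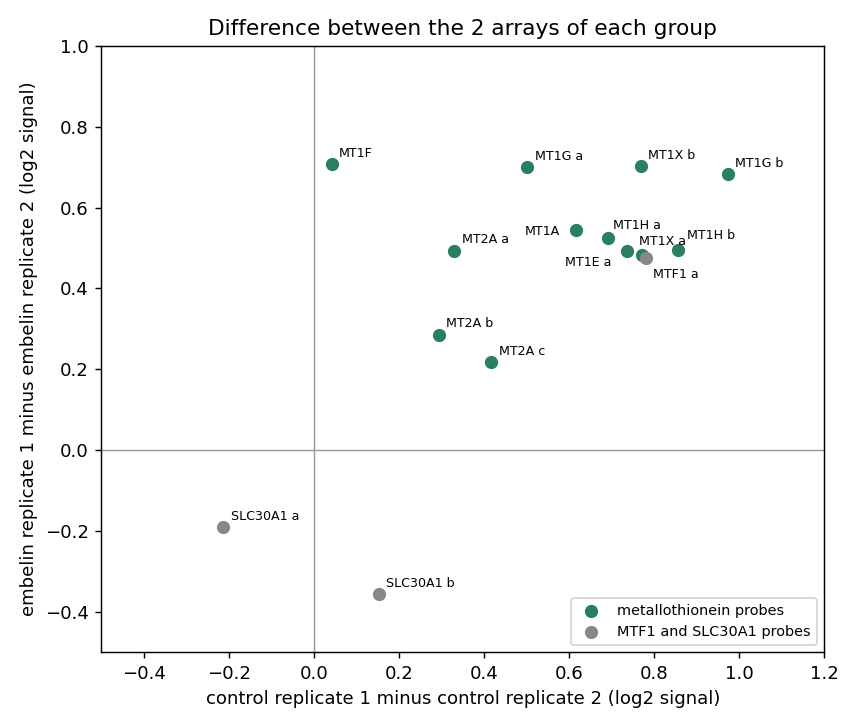
Difference in log2 signal between the 2 control arrays (horizontal axis) and between the 2 embelin arrays (vertical axis) for each of the 15 tested probes, named by gene and probe letter. All 12 metallothionein probes (green) lie above 0 on both axes, with MTF1 beside them and the 2 SLC30A1 probes (grey) below 0 on the vertical axis.

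Other genes of metal handling were read from lists made by function and not by how they differed. Of 8 other metallothionein genes and pseudogenes, 3 were tested and limma called 0 at an adjusted p under 0.05 and 0 at an unadjusted p under 0.05, with a median log2 difference of 0.51. MT1B, whose probe overlaps that of MT1L over 43 bases with 5 mismatches, read 14.66 and 14.01 in the controls and 15.19 and 14.60 with embelin, a difference of 0.56. The brightest MT1L probe read 14.66 and 13.93 in the controls and 15.22 and 14.38 with embelin, a difference of 0.51. This probe and that of MT1B had the array order of the MT1 genes above. It is also the MT1L probe that overlaps those of MT1B and MT1E. The other MT1L probes were each well above background on at most 1 array and were not tested, so the bright signal may not be that of MT1L. MT3, the form best known from brain, read 9.71 and 9.89 in the controls and 9.95 and 9.87 with embelin, a difference of 0.11.

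Of 8 other SLC30 zinc exporters, 5 were tested. Limma called 0, with 1 at an unadjusted p under 0.05, and the median log2 difference was -0.31. SLC30A3, best known for loading zinc into synaptic vesicles, read 11.19 and 11.17 in the controls and 10.35 and 10.702 with embelin, a difference of -0.65 with a limma adjusted p of 0.199. SLC30A6 and SLC30A5, which load zinc into the secretory pathway, both had differences of -0.31 with overlapping groups. The other tested probes of SLC30A5 had differences of -0.30 and 0.01. Of 14 SLC39 transporters, which bring zinc into the cytosol, 11 were tested and limma called 0, with 0 at an unadjusted p under 0.05. By the brightest probe of each gene, their median was -0.12 and their range -0.40 to 0.14. SLC39A3 had a difference of -0.40, SLC39A1 of -0.24 and SLC39A4 of -0.16. The other tested probes of SLC39A3 had differences of -0.72 and -0.11, with limma adjusted p of 0.192 and 0.891 when each probe was fitted on its own. Those of SLC39A1 had differences of -0.49 and -0.29.

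Of 12 copper-handling genes, 11 were tested and limma called 0, with 1 at an unadjusted p under 0.05 and a median of -0.04. ATP7B, a copper-exporting ATPase, read 10.15 and 10.13 in the controls and 9.12 and 9.57 with embelin. Its difference was -0.80 (SE 0.22), with a limma adjusted p of 0.171. SCO2 and SCO1, which deliver copper to cytochrome oxidase, had differences of -0.30 and -0.28. The other tested probes of SCO2 differed in sign, at 0.21 and -0.29, and on the first of them the embelin arrays were 1.49 apart. No probe of ATP7A was used here.

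Of 13 iron-handling genes, 12 were tested and limma called 0, with 3 at an unadjusted p under 0.05 and a median of 0.06. HMOX1, the haem-degrading enzyme that responds to oxidants and to metals, read 13.73 and 14.25 in the controls and 16.25 and 15.90 with embelin. Both embelin arrays lay far above both controls. The log2 difference was 2.08 (SE 0.27), 4.24-fold, and the limma adjusted p was 0.055, just above the threshold of 0.05. By the brightest probe of each gene it was the 1 gene of all these lists, the metallothioneins included, to reach 2-fold. SLC25A37, a mitochondrial iron importer, read 11.23 and 11.14 in the controls and 12.15 and 11.73 with embelin, a difference of 0.75 with a limma adjusted p of 0.182. Its other tested probes had larger log2 differences, 1.31 and 1.17, with limma adjusted p of 0.137 and 0.446 when each probe was fitted on its own, and the mean over its probes was 1.08. SLC25A28, a related mitochondrial carrier, was the other gene at an unadjusted p under 0.05, with a difference of -0.63, and is named after its values were seen. STEAP3, an iron reductase of endosomes, had a difference of 0.69 with a limma adjusted p of 0.310. Its other tested probe had a log2 difference of 1.13, with a limma adjusted p of 0.147 when fitted on its own.

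**Figure D5:**
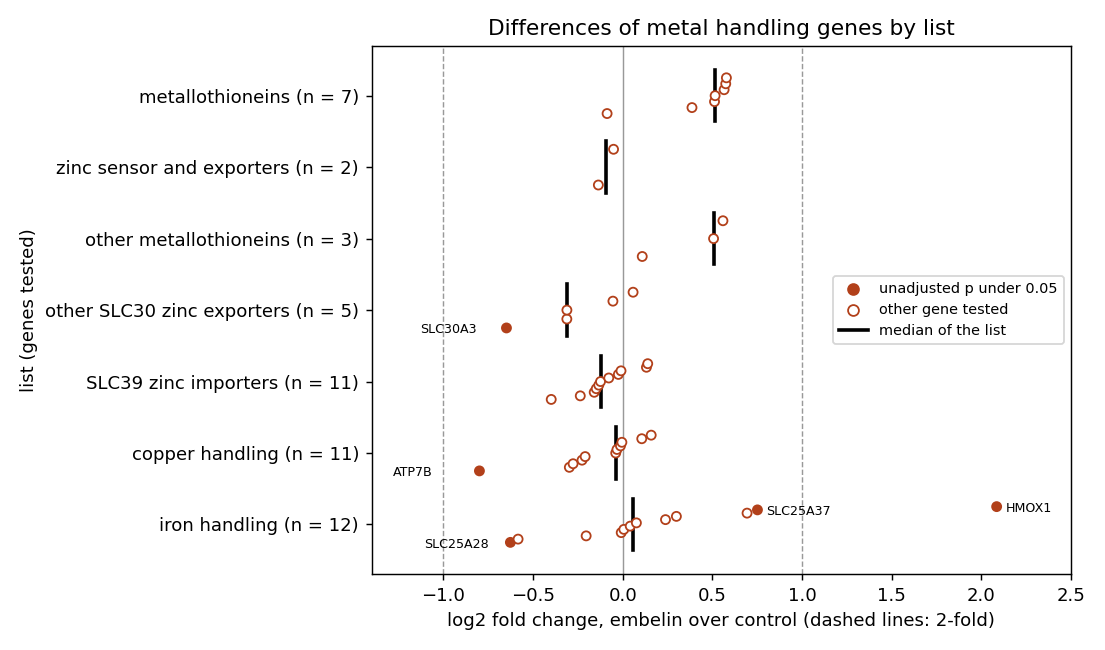
Log2 fold change of embelin over control by the brightest probe of each gene tested in 7 lists of metal handling genes, with the list's median as a black bar and genes at an unadjusted p under 0.05 filled and named. The 2 metallothionein lists have medians of 0.51, the other lists have medians from -0.31 to 0.06, and HMOX1 at 2.08 is the 1 gene past a dashed 2-fold line.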

How the data were processed

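Cy3-labelled RNA of 2 control and 2 embelin samples was hybridised to a custom 1-colour Agilent array. Per the file headers, the authors' scans were read with Feature Extraction 10.7.3.1, and the authors deposited processed signal intensity, mean and background intensity and flags per spot. The series' table of probe values deposited with them, also intensity, was an alternative. The labels place 1 sample on each array.

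Spots of a probe were averaged without outlier flags, scaled to a common 75th percentile, as the study's methods state, given a floor of 1 and log2-transformed here from the deposited values. A probe counted as well above background where at least 0.5 of its spots carried the flag, and it was kept where that held on both arrays of at least 1 group, which left 26145 probes. Of all probes, 28590 were named by RefSeq accession, 2341 by a name shared with such a probe, and 19307 kept the file's name. The accessions were matched to RefSeq without versions. The brightest kept probe stood for its gene, with lmFit and eBayes in limma 3.58.1 (R 4.3.3), 95% intervals from its moderated spread and Benjamini-Hochberg adjustment over 17649 genes. Called means an adjusted p under 0.05. The tests were checked on simulated data with changes larger than those measured for the metallothioneins and with noise independent between genes. That check does not cover differences of the size measured here. Tables were made with Python 3.11.15.

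Every one of the 10 genes is named with all its probes, and from each other list the called genes or, with none called, the 3 with the largest absolute log2 difference. The members and lists were chosen with earlier results of these data known. All 4 arrays share 1 slide and 1 scan, and their number limits the precision. The alternatives were normexp background correction with offset 50, quantile normalization, the deposited table, no filter, a filter on all 4 arrays, the mean over probes, each probe alone, the methods' t-test, a trended robust prior, blocks for replicate number and array background, slide position, and each array left out. Protein sequences were not used here. One haematopoietic marker is not reported here.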

Additional observations from a re-analysis of the deposited data

How the results depend on the processing

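No setting gave a call among the 10 genes. In 16 alternatives the 9 tested genes gave 144 log2 differences, of which 138 kept their sign and none had an adjusted p below 0.213. MT1A, MT1E, MT1G, MT1H, MT1X and MT2A stayed above 0 in all 16. When 1 array was left out, the difference of MT1X ran from 0.19 to 0.96, that of MT1G from 0.22 to 0.92 and that of MT2A from 0.14 to 0.63. The sign turned for SLC30A1 with the mean over its probes (0.067), without control replicate 2 (0.055) and without embelin replicate 1 (0.044), in a range of -0.16 to 0.055 when 1 array was left out. It also turned for MTF1 without control replicate 1 (0.25) and without embelin replicate 2 (0.10), in a range of -0.53 to 0.25. For MT1F it turned without embelin replicate 2, in a range of -0.44 to 0.27. Outside the 9 genes, among those named from the other lists, it turned for SLC30A6 without embelin replicate 1, in a range of -0.64 to 0.020. The cause of these turns was not tested.

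Over all genes limma called 320 (221 higher, 99 lower), against 699 (422 and 277) after normexp, 159 (126 and 33) from the deposited table, 764 (419 and 345) with the filter on all 4 arrays and 1061 (566 and 495) with the trended robust prior. It called 0 with no filter (2343 at an unadjusted p under 0.05), 0 with the background block (2759), 0 with slide position (3053) and 0 without any 1 array (2131 to 3052). The methods' t-test gave 1003 genes at their threshold of p and fold, 0 of them among the 10, and 0 after adjustment (2755 at an unadjusted p under 0.05). HMOX1 passed after normexp, with the filter on all 4 arrays and with the trended robust prior, 1 call each in the iron list, and its limma adjusted p ran from 0.00682 to 0.412 over the alternatives. The promoter count was 22 cores in whole windows and 20 before the start.

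The replicate numbers are shared by the groups, but nothing says that they pair the samples; deviations of same-numbered arrays correlated at 0.175 over 17298 genes, with 2 pairs. With the replicate block limma called 0 genes, with 3743 of all genes tested at an unadjusted p under 0.05. Of the 9 it called 0, with 4 at an unadjusted p under 0.05 (MT1G, MT1H, MT1X and MT1A, from 0.0398 to 0.0478) and the same differences. Values of the MT1H, MT1X and MT1A probes may include transcripts of another MT1 gene. For the MT1G probes no RefSeq transcript of another gene was listed. All 4 genes varied together between the arrays of a group, so these 4 are not independent results. Between arrays of the same number, embelin was above control for both numbers in 11 of the 12 metallothionein probes, with median differences of 0.45 and 0.54, and in 6 of the 9 genes, against 28.7% of the 17298 genes.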
